A study of Mus musculus with 2 samples.

Results

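The striated muscle microRNAs miR-1, miR-133 and miR-206 were examined in small RNA libraries of mouse liver. They were taken by name as mmu-miR-1a-3p, mmu-miR-133a-3p, mmu-miR-133a-5p, mmu-miR-133b-3p and mmu-miR-206-3p, which are 5 of the 1915 microRNAs listed. The livers came from female C57BL/6 mice aged 8 to 10 weeks, with no genetic change named. All mice took the liquid control Lieber-DeCarli diet for 5 days. The ethanol-fed mice then had the diet with 5% (v/v) ethanol for 10 days and a gavage of 6 g/kg ethanol on day 16. The pair-fed mice were kept on control diet of equal calories and were gavaged with dextrin-maltose on the same day. Livers were taken 9 h after the gavage. One table (experiment 1) and another (experiment 2) each hold 1 pair-fed and 1 ethanol-fed library. The labels describe 1 sample per condition, and the animals or pools behind a library are not named. No spread between animals can be given, and every comparison is between libraries.

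A microRNA is a short RNA that guides an Argonaute protein to messenger RNAs, mostly by pairing of its seed, the bases 2 to 8. miR-1, miR-133 and miR-206 are known as the main microRNAs of striated muscle, where myogenic transcription factors drive their genes. miR-1 and miR-133a are made in heart and skeletal muscle, whereas miR-206 and miR-133b, which come from one transcript, are known mainly from skeletal muscle. miR-1 and miR-206 promote muscle differentiation, and miR-133 acts on proliferation of myoblasts and on contractile and signalling proteins. Hepatocytes are not a usual source of them, and miR-122 is the classic hepatocyte microRNA.

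The mature sequences are shown because they define which reads can be told apart. RefSeq sequences (GRCm38.p6) were found for 2 of the 5 members, with the seed in capitals.
miR-206-3p: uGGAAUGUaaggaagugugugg
miR-133b-3p: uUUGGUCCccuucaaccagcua

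Both are 22 nt long, and their seeds have the same base at 1 of 7 positions, so that these are 2 separate seed families. miR-1a-3p carries the seed of miR-206-3p, and miR-133a-3p that of miR-133b-3p. miR-133a-3p and miR-133b-3p differ only at the 3′ end, so reads that end early cannot be told apart between them, and their separate counts are uncertain. Mir206 lies at chr1:20679010-20679082 and Mir133b at chr1:20682769-20682887, both on the plus strand and 3686 bp apart (GRCm38, GENCODE annotation). Both overlap exons of Gm28653, a long noncoding RNA gene. Mir1a-1 (chr2:180389048-180389124) and Mir133a-2 (chr2:180398379-180398482) lie 9254 bp apart on the plus strand, within the long noncoding RNA gene Mir1a-1hg (chr2:180385604-180401802, RefSeq). miR-1a-3p and miR-133a-3p are each made from a further gene copy as well, so their reads cannot be assigned to a locus.

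Depth differed between the tables. Experiment 1 holds counts, with 4170601 reads on microRNAs (pair-fed) and 4311802 (ethanol-fed). Experiment 2 holds reads per 1000000 on microRNAs (RPM). A step of 0.0925 RPM (pair-fed) or 0.0924 RPM (ethanol-fed) separates its low values. Taking a step as 1 read gives totals of about 10811836 and 10819726 reads. The lowest listed value was 0.92 RPM, or 10 reads, in both libraries, and a microRNA listed at 0 there may have had fewer reads than this. Intervals are exact 95% binomial intervals and cover counting error only, since each table holds 1 library per condition. PCR copies were not told apart, so the intervals can be too narrow.

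miR-1a-3p, the muscle microRNA that promotes differentiation, made up nearly all of the members' signal in experiment 2. Its level was 69.9 RPM (65.0 to 75.1, 756 reads) in the pair-fed library and 111 RPM (105 to 118, 1202 reads) in the ethanol-fed library. It ranked 138 of 438 microRNAs above 0 in the former and 117 of 433 in the latter, and thus stood in the upper part of both lists. It supplied 97.2% and 96.9% of the RPM summed over the members. The ethanol-fed level was 1.59-fold the pair-fed one (1.45 to 1.74), a log2 ratio of 0.67 after 1 read was added to each library. This difference is larger than the counting error, but the spread between animals is unknown. In bulk RNA, more cells of a type and more RNA per cell cannot be told apart. Values of miR-1a-3p in experiment 1 were not analysed here, so its ratio has no counterpart in another table.

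miR-133a-3p, the only member with values above 0 in all 4 libraries, was far less abundant. In experiment 1 it had 2 reads in the pair-fed library, or 0.480 RPM (0.0581 to 1.73). The ethanol-fed library of experiment 1 had 18 reads, or 4.17 RPM (2.47 to 6.60). In experiment 2 the level was 2.03 RPM (1.28 to 3.08, 22 reads) after pair-feeding and 3.60 RPM (2.56 to 4.93, 39 reads) after ethanol. The ethanol-fed value was thus the higher one in each table. By level the pair-fed library of experiment 1 was lowest, followed by the pair-fed and the ethanol-fed library of experiment 2 and the ethanol-fed library of experiment 1. The tables were scaled separately. The intervals of the highest neighbours, 3.60 and 4.17 RPM, overlapped, and their ratio was 1.16 (0.624 to 2.07).

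The fold of miR-133a-3p, ethanol-fed over pair-fed, was 8.71 in experiment 1 with a wide interval from 2.08 to 77.4, because it rests on 2 pair-fed reads. In experiment 2 it was 1.77 (1.02 to 3.14). The fold of experiment 1 was 4.91 times that of experiment 2, with an interval of 1.00 to 46.9 that almost reaches equality. With 1 read added to each library, the log2 ratios were 2.61 in experiment 1 and 0.80 in experiment 2.

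miR-133b-3p, the partner of miR-206 in skeletal muscle, had 1 read (pair-fed) and 2 reads (ethanol-fed) in experiment 1, at 0.240 RPM (0.00607 to 1.34) and 0.464 RPM (0.0562 to 1.68). The fold of 1.93 has an interval of 0.101 to 114, and no difference was detectable at this depth. In experiment 2 it was listed at 0 in both libraries. miR-206-3p, the skeletal muscle member of the miR-1 family, was also listed at 0 in both libraries of experiment 2, as was miR-133a-5p, the strand of the miR-133a hairpin that is mostly discarded. Each of the 3 can have been present below 0.92 RPM. In experiment 2 values above 0 were held by 2 of the 5 members, against 22.9% (pair-fed) and 22.6% (ethanol-fed) of all 1915 listed microRNAs. Values of miR-206-3p and miR-133a-5p in experiment 1 were not analysed here.

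**Figure D1:**
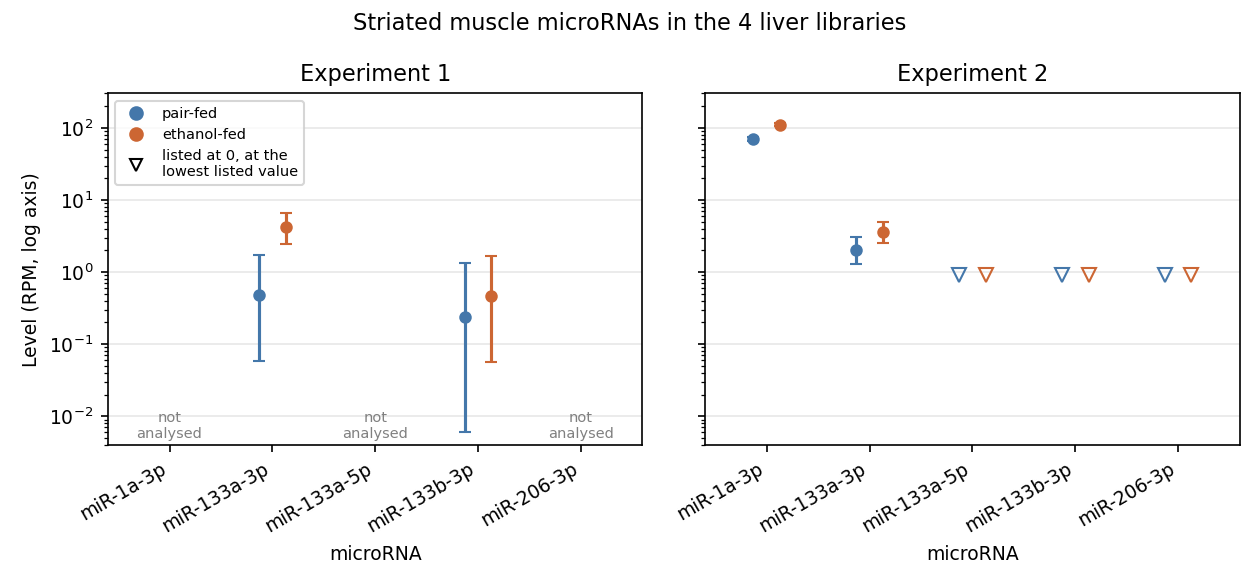
Level of each member in RPM on a log axis in the pair-fed (blue) and ethanol-fed (orange) library of each experiment. Points are single libraries with exact 95% counting intervals, and open triangles mark values listed at 0, drawn at the lowest listed value of 0.92 RPM. miR-1a-3p stands at 69.9 and 111 RPM in experiment 2, and miR-133a-3p lies higher in the ethanol-fed library of both experiments.

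miR-1a-3p and miR-133a-3p, which lie together in their host genes, kept a like proportion in the libraries of experiment 2. There were 34.4 reads of miR-1a-3p per read of miR-133a-3p (22.5 to 55.2) in the pair-fed library and 30.8 (22.4 to 43.6) in the ethanol-fed library. The fold of miR-133a-3p was 1.11 times that of miR-1a-3p, with an interval of 0.639 to 1.99. The difference between the members' folds was therefore not detectable at this depth, and the interval still allows one of them to have moved almost 2-fold more than the other. Reads were compared without a length correction, as microRNAs are of similar length.

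The members' ratios were then placed among those of all microRNAs. A microRNA counted as at least 2-fold apart when its absolute log2 ratio was at least 1, among those with at least 10 reads summed over a table's libraries. In experiment 1 this held for 77 of 302 (25.5%), of which 38 (12.6%) were higher in the ethanol-fed library. In experiment 2 it held for 121 of 469 (25.8%), of which 50 (10.7%) were higher. miR-133a-3p was among the 38 in experiment 1, where its log2 ratio ranked 4 of 302 from the highest. It passed the minimum of 10 reads only through the ethanol-fed library, with 18 of its 20 reads, so a high ratio was needed for it to enter and the rank is a description. No member was 2-fold apart in experiment 2. In experiment 2, miR-133a-3p ranked 66 and miR-1a-3p 74 of 469. Their log2 ratios were 0.80 and 0.67, and the median over all 469 was 0.0026. With 2 members in 1 pair of libraries, no shift of the members as a group can be read from these values.

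Few reads give large ratios more often. Of the 144 microRNAs with 10 to 99 reads in experiment 1, a band that includes miR-133a-3p with 20, 28 (19.4%) were at least 2-fold higher. In the same band of experiment 2, 38 of 171 (22.2%) were higher, but only 9 of 106 (8.49%) among those above 0 in both libraries, as miR-133a-3p was with 61 reads. Of the 151 microRNAs with at least 1000 reads in experiment 2, which include miR-1a-3p with 1958, 3 (1.99%) were at least 2-fold higher. The log2 ratios of these 151 had an upper quartile of 0.23 and a standard deviation (SD) of 0.48, against 0.67 for miR-1a-3p.

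**Figure D2:**
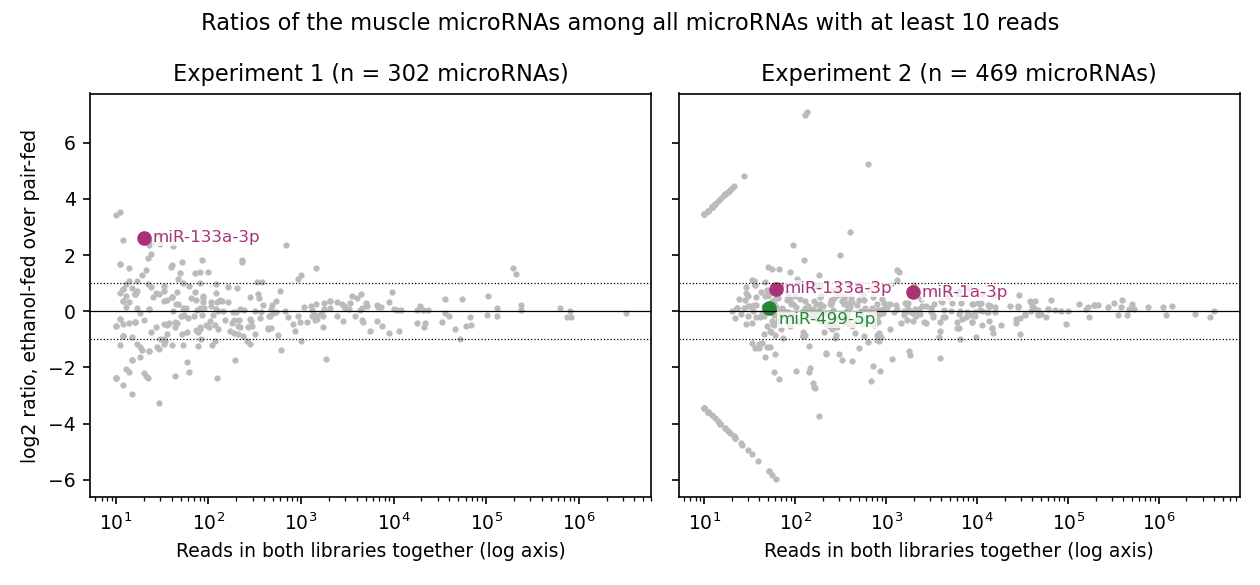
Ethanol-fed over pair-fed RPM as a log2 ratio against the reads in both libraries together (log axis), for all microRNAs with at least 10 reads (gray), the members (purple) and miR-499-5p (green). Dotted lines mark 2-fold, and the slanting rows in experiment 2 are microRNAs listed at 0 in one library. miR-133a-3p, with 2 of its 20 reads in the pair-fed library, lies above the upper dotted line in experiment 1, whereas in experiment 2 the members stay inside the dotted lines.

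The levels also depend on what the denominator holds. miR-122-5p, the hepatocyte microRNA, made up 0.297% of the pair-fed reads in experiment 1 and 18.3% in experiment 2. Per 1000 reads of miR-122-5p, miR-133a-3p had 0.161 reads (pair-fed) and 1.89 reads (ethanol-fed) in experiment 1. In experiment 2 it had 0.0111 and 0.0230, and miR-1a-3p had 0.382 and 0.709. In RPM, miR-133a-3p in the pair-fed library of experiment 1 was 0.236 times the level of experiment 2 (0.0269 to 0.959), whereas per miR-122-5p it was 14.5 times that level (1.65 to 59.0). The order of the pair-fed libraries thus turns when miR-122-5p is the reference. Other hepatocyte microRNAs were divided in the pair-fed libraries. In experiments 1 and 2, miR-122-3p was at 37.9 and 299.64 RPM, and miR-194-5p at 1149 and 23768.5 RPM. In contrast, miR-192-5p (388161 and 117318 RPM) and miR-802-5p (121 and 111 RPM) were higher in experiment 1 and would not turn the order. For the ethanol-fed libraries, the level of experiment 1 was 1.16 times that of experiment 2 in RPM and 82.1 times per miR-122-5p (44.2 to 147). The ethanol-fed library was higher within each table by both measures.

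Other microRNAs of the muscle programme were read in the same way. miR-208a, miR-208b and miR-499 lie in myosin heavy chain genes and mark heart and slow muscle. Their leading strands are shown to compare their seeds (RefSeq, GRCm38.p6, seed in capitals).
miR-208a-3p: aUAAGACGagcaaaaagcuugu
miR-208b-3p: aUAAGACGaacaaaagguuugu
miR-499-5p: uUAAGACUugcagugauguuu

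The seeds of miR-208a-3p and miR-208b-3p are the same, and that of miR-499-5p equals them at 6 of 7 positions. Of the 6 strands of these hairpins, 1 was above 0 in experiment 2, where 22.9% (pair-fed) and 22.6% (ethanol-fed) of all 1915 listed microRNAs were above 0. This was miR-499-5p, which lies in an intron of Myh7b (chr2:155622893-155622913, plus strand), a slow myosin gene, with 2.31 RPM (pair-fed) and 2.50 RPM (ethanol-fed). Its fold was 1.08 (0.603 to 1.94), so no difference was detectable. There were 30.2 reads of miR-1a-3p per read of miR-499-5p in the pair-fed library (20.3 to 47.0) and 44.5 in the ethanol-fed library (30.4 to 67.8). miR-208a-3p and miR-208b-3p, the defining heart and slow muscle forms, were listed at 0 in both libraries. The 7 other forms of the miR-1, miR-133 and miR-206 genes (miR-1a-1-5p, miR-1a-2-5p, miR-1b-3p, miR-1b-5p, miR-133b-5p, miR-133c and miR-206-5p) were listed at 0 in both libraries of experiment 2 as well, as were most microRNAs of the table. None of these strands was analysed in experiment 1.

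Marker lists of other cell types also differed between the libraries. MicroRNAs of a list can come from the same hairpin, as both strands of miR-144 do. The members of a list are therefore not separate observations. In the ethanol-fed library of experiment 2, where the summed level of the members was 115 RPM against 71.95 RPM, the pancreas list (miR-216a-5p, miR-216b-5p, miR-217-5p and miR-375-3p) summed to 113 RPM against 5.92 RPM. All 4 of its members were at least 2-fold higher, against 10.7% of all microRNAs tested. Of these, miR-216a-5p and miR-216b-5p reached the minimum of 10 reads only through the ethanol-fed library, with 127 and 136 reads. Their pair-fed level is known only to lie below 0.92 RPM, so their calls are a description. Reads of miR-217-5p were 15 (pair-fed) and 610 (ethanol-fed), and those of miR-375-3p were 49 and 350. The list of red cells (miR-486a-5p, miR-451a and both strands of miR-144) summed to 1152 against 1826 RPM and was lower in 4 of 4, none of them 2-fold apart. In experiment 1 the red cell list summed to 33915 RPM in the ethanol-fed against 11559 RPM in the pair-fed library. Higher were 4 of 4, and 3 were at least 2-fold higher, against 12.6% of all microRNAs tested. Most of both sums came from miR-486a-5p, with 33721 RPM (ethanol-fed) and 11512 RPM (pair-fed). There the pancreas list was at 48.5 against 85.1 RPM, with 2 of its 4 members analysed. The lower sum came from miR-375-3p, with 355 reads (pair-fed) and 205 reads (ethanol-fed), whereas miR-216b-5p had 0 and 4 reads.

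The list of smooth muscle and mesenchyme (miR-143-3p, miR-145a-5p, miR-199a-3p and miR-214-3p) summed to 96518 RPM (pair-fed) and 96073 RPM (ethanol-fed) in experiment 1. Its main member there, miR-143-3p, was at 0.994-fold (0.990 to 0.999). At least 2-fold higher were 2 of 4 members, against 12.6% of all microRNAs tested. These were miR-145a-5p, known from smooth muscle, with 119 and 256 reads, and miR-214-3p with 3 and 20 reads. miR-214-3p passed the minimum of 10 reads only through the ethanol-fed library, so its call is a description. In experiment 2 the sums were 18978 and 24067 RPM, and none of the 4 was 2-fold apart. The neuron list (miR-124-3p, miR-9-5p, miR-129-5p, miR-138-5p and miR-219a-5p) summed to 26.4 RPM (pair-fed) and 35.0 RPM (ethanol-fed) in experiment 2, with 3 of 5 above 0. Of these, miR-9-5p was at least 2-fold higher, with 2.96 and 6.65 RPM and a log2 ratio of 1.14. Among all microRNAs tested, 10.7% were that much higher. miR-129-5p was higher at a log2 ratio of 0.42, whereas miR-219a-5p was lower at -0.86, with 39 and 21 reads. In experiment 1, where 2 of its 5 members were analysed, the neuron list was at 2.16 and 3.01 RPM. The hepatocyte list (miR-122-5p, miR-122-3p, miR-192-5p, miR-194-5p and miR-802-5p) was above 0 in every library, with sums of 291835 to 392440 RPM. None of its 5 members was 2-fold apart in either experiment. The makeup of the sums differed between the tables. In the pair-fed libraries of experiments 1 and 2, miR-192-5p was at 388161 and 117318 RPM, and miR-122-5p at 2971 and 182938 RPM. The part of blood, pancreas or mesenchyme in the members' values was not tested.

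**Figure D3:**
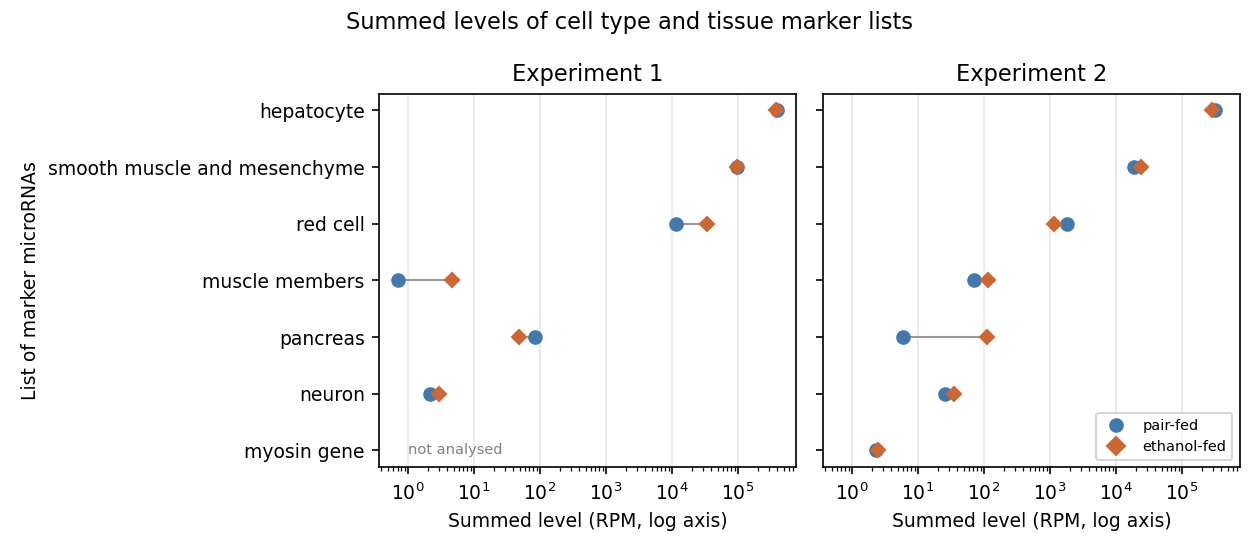
Summed level in RPM (log axis) of the members and of 6 marker lists in the pair-fed (circles) and ethanol-fed (diamonds) libraries, each a single library without an error. In experiment 2 the pancreas list goes from 5.92 to 113 RPM and the muscle members from 71.95 to 115 RPM, while the red cell list is higher in the ethanol-fed library in experiment 1 and lower in experiment 2.

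The microRNAs with the pair of ratios most like that of miR-133a-3p depended on the minimum of reads. Among the 135 microRNAs outside the lists with at least 100 reads in each table, the nearest was miR-3470b, with log2 ratios of 0.85 and 1.29 in experiments 1 and 2 and a Euclidean distance of 1.83. It was followed by miR-486b-5p (1.32 and -0.60, distance 1.90) and miR-484 (0.66 and 0.18, distance 2.05). In experiment 2, miR-486b-5p had the same reads as miR-486a-5p of the red cell list, 8844 (pair-fed) and 5847 (ethanol-fed). miR-133a-3p itself, with 20 and 61 reads, lies below that minimum. With at least 10 reads in each table, a minimum chosen after seeing the data, the nearest of 267 was miR-574-5p (2.54 and 0.25, distance 0.55). It was followed by miR-99b-3p (1.88 and 0.60, distance 0.76) and miR-1839-3p (2.48 and 0.05, distance 0.76). These 3 had 12 to 25 reads in experiment 1. Like miR-133a-3p, they passed the minimum there only through the ethanol-fed library, with 11, 18 and 22 reads. A high ratio was thus needed for them to enter, and their likeness is a description. Likeness was measured over 2 ratios only, and miR-133a-3p was taken as the reference after its values were seen.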

How the data were processed

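Small RNA libraries of mouse liver were analysed from 2 tables, each with 1 pair-fed and 1 ethanol-fed library. Columns were assigned to conditions by their names, and 0 were left over. Experiment 1 was deposited as raw counts of reads on each mature microRNA. Experiment 2 was deposited as RPM, scaled by the authors to the reads on microRNAs and listed in 2 identical copies of each column, beside their own log2 fold changes and p-values, which were not used. Genome build mm8 is given in the submitters' processing notes, while aligner, annotation version and filters are not given in the sources used here. Sequences and places refer to GRCm38 and describe the genes only.

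Totals per library were the reads on microRNAs. In experiment 2 reads were estimated from the steps of 296 and 291 values under 60 RPM, of which 99.7% and 98.3% lay within 0.15 of a whole step. The log2 ratio was computed with a pseudocount of 1 read per library, which understates changes of microRNAs with few reads. Intervals were exact binomial (Clopper-Pearson), for a ratio of 2 libraries the conditional binomial, and for a ratio of folds the conditional odds ratio. With 1 library per condition there is no replicate and no p-value was computed. The calculations were tested on simulated data.

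The members and the marker lists, which come from general knowledge, were chosen with earlier results of these data known. The microRNAs named were the members, the other strands of their hairpins, the myosin gene microRNAs, the marker lists and the 3 nearest in pattern. That last rule was written for miR-1a-3p with at least 100 reads in each table. As miR-1a-3p has no ratio in experiment 1, miR-133a-3p took its place. Alternatives were other scalings, pseudocounts and minimums and another reading of zeros. Intervals came from scipy 1.17.1, tables were handled with pandas 2.3.3 and numpy 2.4.6 under Python 3.11.15, and figures were drawn with matplotlib 3.10.9.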

Additional observations from a re-analysis of the deposited data

How the results depend on the processing

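The members' log2 ratios kept their direction under every scaling, pseudocount and reading of zeros tried, and 21 of 22 values stayed within the counting interval. The exception was miR-1a-3p in experiment 2, at 0.67 and at 0.89 when scaled to miR-122-5p. This scaling moves the median of all microRNAs by 0.22 in experiment 2 and 0.43 in experiment 1, and it brings miR-133a-3p in experiment 2 from 0.80 to 1.02, past 2-fold. In experiment 1, miR-133a-3p stayed between 2.34, with the reads of miR-133b-3p added, and 3.06, with a pseudocount of 0.1 read. The number of microRNAs at least 2-fold apart was 77 in experiment 1, 201 with no minimum and 19 with at least 100 reads. In experiment 2 it was 121, against 36 with at least 100 reads, 71 with zeros at the lowest listed value, and 7 with at least 1000 reads, an alternative chosen after seeing the data. These counts follow from which microRNAs enter and from how a 0 is read. With totals that leave out the most abundant microRNA, miR-1a-3p in experiment 2 was at 85.9 and 137 RPM and miR-133a-3p in the ethanol-fed library of experiment 1 at 6.66 RPM, above their counting intervals. Of 8 levels, the other 5 stayed within theirs. No paired analysis was possible because the labels hold 1 sample per condition, so that the conditions share fewer than 2 replicate numbers. The ratios within the tables, 2.61 and 0.80 for miR-133a-3p, stand side by side without a test. Depth limits miR-133b-3p, with 3 reads in experiment 1, and every member listed at 0 in experiment 2.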

Other observations

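Experiment 2 held 127 microRNAs at or above the mean level of miR-1a-3p over its libraries, 90.5 RPM. Of these, 123 had values in experiment 1. The other 4 were not analysed in experiment 1. They were miR-7a-5p with 5110 RPM (pair-fed) and 3707 RPM (ethanol-fed) in experiment 2, miR-374c-5p with 461 and 352 RPM, miR-28c with 114 and 105 RPM, and miR-1a-3p itself. They were named after their values were seen, and the reason was not tested.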
